A study of Bos taurus with 8 samples.

Results

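The amino acid solute carriers are genes of 8 families that move amino acids, short peptides or related small molecules across membranes. Their transcript levels were taken from RNA sequencing of bovine trophectoderm outgrowths. Members were taken by name alone, as every row of the deposited table whose gene symbol begins with SLC1A, SLC3A, SLC6A, SLC7A, SLC15A, SLC36A, SLC38A or SLC43A and a number. The rule found 41 of 14970 rows. One of them, SLC7A6OS, is a gene named for lying opposite SLC7A6 and is not a carrier, so 40 carriers are described. SLC7A6OS lies 1.837 kb from SLC7A6 on chromosome 18, shares no exon bases with it and stood at 23.6 to 32.0 RPKM. By family the 40 are 4 of SLC1, 2 of SLC3, 10 of SLC6, 8 of SLC7, 3 of SLC15, 3 of SLC36, 7 of SLC38 and 3 of SLC43. In a RefSeq table of the cow genome (ARS-UCD2.0), 64 symbols fit the same rule, and the 23 without a row under that symbol, SLC38A4, SLC7A3, SLC7A9 and SLC1A2 among them, were not analysed here. The table also has 2035 rows with no symbol, which were not matched to carriers, so sums and shares over the carriers cover named rows alone.

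The cells were trophectoderm, the outer layer of the embryo that becomes the fetal part of the placenta. Every sample was an outgrowth of a single hatched embryo produced in vitro, seeded at day 10 onto plates coated with collagen IV and grown in a trophectoderm medium. There were 4 outgrowths harvested at day 35 (libraries A to D) and 4 at day 41 (libraries E to H), and the days differ in no other way that the labels state. The letters follow the column order of the table, whose headers give the day but not the numbered outgrowth. The outgrowth number 1 occurs on both days, and no label says whether it marks the same embryo.

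Amino acids enter and leave cells through carriers that differ in substrate and in driving force. Some use the sodium gradient to accumulate amino acids, some exchange one amino acid for another, some use protons, and some let amino acids run down their gradient. The light chains of the SLC7 family reach the cell surface only as a pair with a heavy chain of the SLC3 family, SLC3A2 or SLC3A1. In the placenta the sodium-coupled carriers and the exchangers act together, the first loading the trophoblast and the second trading those amino acids for essential ones. In sheep, arginine and leucine are known to act on trophectoderm through the mTOR kinase, and several of the carriers are known in other mammals to be induced by the transcription factor ATF4 when amino acids are short.

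Values are RPKM, read counts divided by the annotated exon length and by the library size as the authors scaled it, so levels of different genes may be compared. The reads recovered from the RPKM summed to 106402848 to 158034430 per library over the genes in the table. Counting error is therefore small beside the spread between outgrowths for all but the lowest carriers. Trophectoderm was checked by its markers. All 10 listed markers had a row and passed the filter of the test, and their summed level was 4727 to 9385 RPKM in A to D and 3961 to 4452 RPKM in E to H. Much of this sum came from the keratins KRT8, at 1700 to 2748 RPKM, and KRT18, at 768 to 1359 RPKM. In library A it also held PAG2 at 4349 RPKM, against 163 to 811 RPKM in the other 7. GATA2, GATA3 and TFAP2C lay between 59.0 and 126 RPKM, CDX2 between 4.47 and 10.3 RPKM and IFNT between 0.261 and 25.5 RPKM. Library A stood apart. Its weight in a fit with weights per library was 0.128, against 0.683 to 4.00 for the other 7. Several results in which it was extreme are given with and without it. Library B had the most mesenchymal and yolk sac transcripts, with a summed level of 246 RPKM over 9 mesenchymal markers against 2.79 to 34.0 RPKM in the others, and of 577 RPKM over 8 hypoblast markers against 15.97 to 254 RPKM. Of the other cell types looked for, 3 immune markers summed to 24.8 to 47.3 RPKM, 3 cumulus markers to 0.135 to 1.15 RPKM and 1 endothelial marker to 0.526 to 3.02 RPKM. In these bulk samples, fewer cells of a type and less RNA per cell cannot be told apart.

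Carrier transcripts were dominated by a few genes. The 40 carriers summed to 758, 663, 643 and 700.2 RPKM in libraries A to D and 631, 649, 598 and 578 RPKM in E to H. Of these, 13 had a mean over the 8 libraries above 10 RPKM, 15 lay above 1 and up to 10 RPKM, and 12 lay at or below 1 RPKM. The 4 highest, SLC3A2, SLC7A8, SLC38A2 and SLC7A4, made up 51.9% to 63.9% of the summed level in each library. Their means were 154 ± 45.6, 96.2 ± 17.2, 79.3 ± 24.1 and 48.2 ± 14.6 RPKM (SD, n = 8), which placed them at the 96.8, 94.7, 93.3 and 88.7 percentile of all genes in the table. After a gap, SLC43A1, SLC38A9, SLC38A10 and SLC15A4 followed between 28.4 and 23.3 RPKM, then SLC1A5, SLC38A7, SLC15A1 and SLC7A7 between 20.4 and 12.8 RPKM. The mean and SD of neighbours overlapped in all but 2 of the 39 steps of this order, the exceptions being SLC7A4 above SLC43A1 and SLC6A14 above SLC15A3. Taken library by library, 2 of the 39 steps kept their direction in all 8, namely SLC3A2 above SLC7A8 and SLC6A14 above SLC15A3. SLC7A4 lay above SLC43A1 in 7 of 8 libraries, and SLC7A8 above SLC38A2 in 4 of 8. The same 12 genes were the highest when ranked by the median, or with any one library left out.

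**Figure D1:**
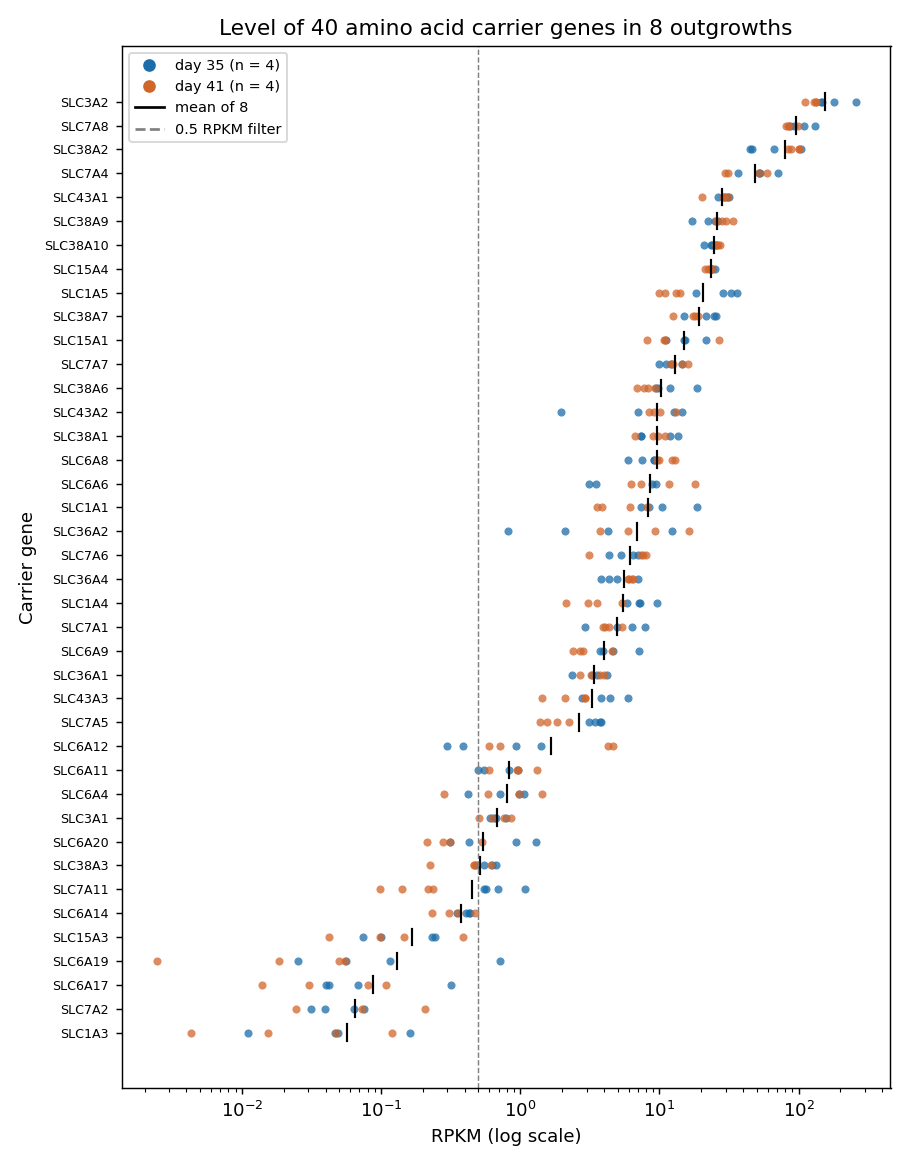
RPKM of each of the 40 carriers (log scale), 1 point per library, blue for day 35 and orange for day 41, with the mean of the 8 libraries as a black bar and the 0.5 RPKM used in the filter of the test as a dashed line. SLC3A2 is highest at a mean of 154 RPKM, and the lowest 5 genes lie below the dashed line in all libraries or all but 1; the value of 0 for SLC7A2 in library G cannot be drawn on this scale.

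Between the days, no carrier passed the threshold in the main test. The smallest p-values belonged to SLC7A5, SLC1A5, SLC7A11 and SLC1A4, all with lower values on day 41, and next to SLC6A8, with higher ones. Day 41 was compared with day 35 by limma-trend on log2(RPKM + 1), over all 12582 genes with 4 or more libraries at or above 0.5 RPKM, with Benjamini-Hochberg adjustment and a threshold of 0.05. Of the 33 carriers that reached this filter, 0 were called higher, where 0.0318% of all tested genes were, and 0 lower, where 0.0159% were. At an unadjusted p under 0.05 there were 3 higher carriers (SLC38A2, SLC38A9 and SLC6A8), which is 9.09% of those tested, against 5.90% of all tested genes. At the same limit there were 9 lower carriers, which is 27.3% of those tested, against 5.82% of all tested genes. The median log2 fold change was -0.11 over the 33 carriers and 0.01 over all tested genes, and 14 carriers had higher and 19 lower values on day 41.

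Fits that weight the libraries by their quality, and the comparison the authors deposited, called a few carriers. With limma-voom and quality weights on the reads recovered from the RPKM, SLC1A4, SLC1A5, SLC7A5 and SLC7A11 were called lower, against 2.23% of all tested genes, and SLC38A2 higher, against 2.96%. Limma-trend with array weights called the same 5 carriers, and also SLC38A7 lower and SLC6A6 higher, against a background of 3.59% lower and 4.71% higher. In the authors' deposited table the same 5 carriers of 40 had an FDR under 0.05, 4 lower against 1.08% of all genes and 1 higher against 0.675%. All of these use the same 8 libraries and are not independent of each other. SLC7A11 reached the filter through day 35 alone and so had to differ. Without it, in a count added after the data were seen, 3 of 32 carriers (9.38%) were lower by limma-voom with quality weights, 4 with array weights, 8 at an unadjusted p under 0.05 and 3 of 39 in the authors' deposited table. The days did not overlap in 6 lower carriers, SLC1A4, SLC1A5, SLC3A2, SLC7A5, SLC7A11 and SLC38A6, against 3.94% of all tested genes, and in 2 higher carriers, SLC6A8 and SLC38A10, against 4.26%. Without SLC7A11 the lower ones were 5 of 32. Among markers of other cells, the immune marker CD14 was at 8.58 ± 0.699 and 13.1 ± 1.63 RPKM on days 35 and 41 and the smooth muscle actin ACTA2 at 7.93 ± 6.803 and 1.27 ± 1.03 RPKM (SD, n = 4 each). The days did not overlap in either, the authors' deposited table has an FDR of 0.0399 and 0.000987, and the part of such cells in the carriers' day differences was not tested.

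**Figure D2:**
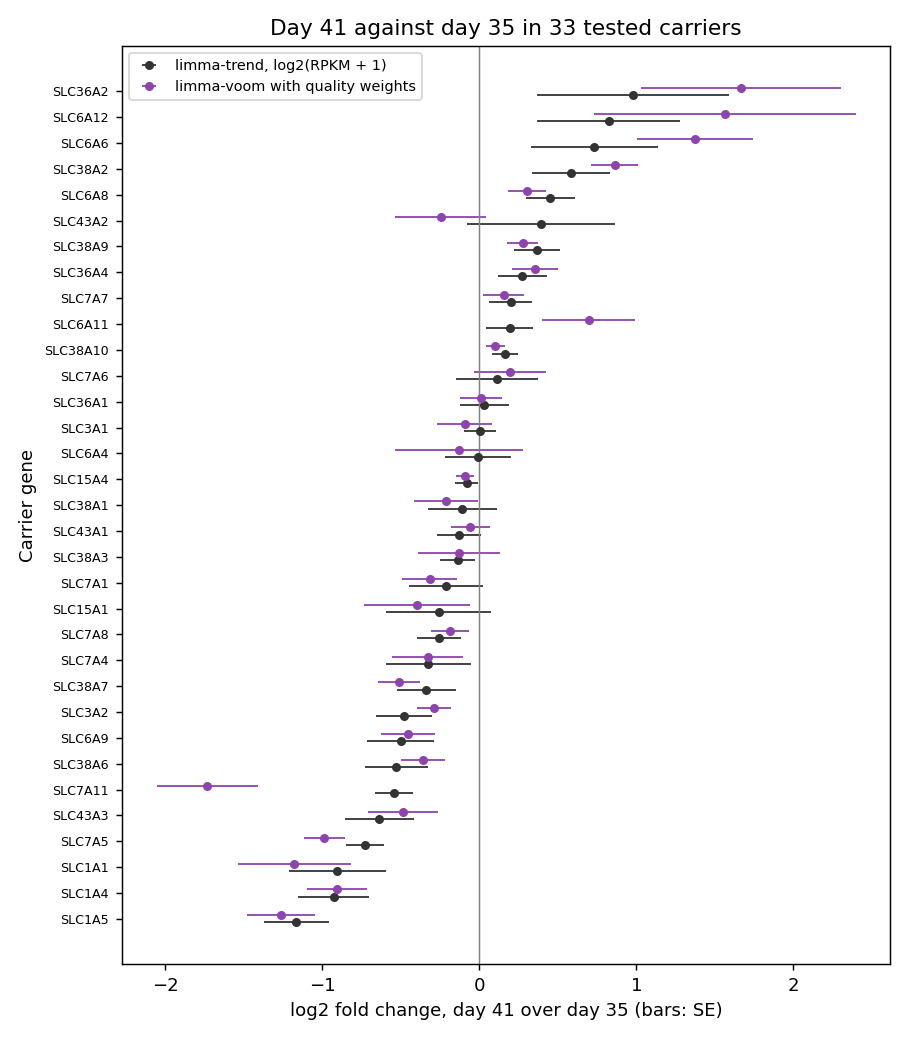
Log2 fold change of day 41 over day 35 with its SE for the 33 tested carriers, from limma-trend on log2(RPKM + 1) in black and from limma-voom with quality weights in purple. SLC1A5, SLC1A4, SLC1A1 and SLC7A5 lie at the low end in both fits, and SLC7A11 is at -0.54 where 1 RPKM was added to every value before the log and at -1.73 on the reads.

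The heavy chain SLC3A2, which carries the SLC7 light chains to the cell surface, was the most abundant carrier transcript (ENSBTAG00000013240, chromosome 29, 41158413 to 41199503). SLC3A2 stood at 257, 178, 145 and 147 RPKM in libraries A to D and 134, 129, 134 and 111 RPKM in E to H. Library A had the highest value, and even the lowest day 35 library lay above all 4 of day 41. The log2 fold change was -0.48 (SE 0.18, limma-trend adjusted p = 0.366) and -0.30 without library A. ATF4, the stress-induced transcription factor, was also highest in library A, at 574 RPKM against 340 to 401 RPKM in B to D and 190 to 280 RPKM on day 41, as was DDIT3, which stress induces through it, at 58.2 RPKM against 10.2 to 14.8 RPKM in the other 7. Their part in the level of SLC3A2 was not tested. The other heavy chain, SLC3A1, the partner of the cystine and cationic amino acid exchanger of kidney and gut, was at 0.680 ± 0.0768 and 0.692 ± 0.154 RPKM on days 35 and 41 (n = 4 each). Of its 2407 bases of exon, 348 are shared with PREPL on the other strand. Reads there cannot be assigned without strand, so this low level is uncertain.

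Among the 5 light chains, SLC7A8 (LAT2, a carrier of neutral amino acids large and small) was by far the most abundant (ENSBTAG00000007415, chromosome 10, 21683779 to 21737239). SLC7A8 reached 87.1, 109.8, 92.4 and 132 RPKM in libraries A to D and 99.0, 80.9, 85.0 and 83.2 RPKM in E to H. It made up 76.4% to 85.8% of the summed light chain level in each library. Its level overlapped between the days, and its limma-trend adjusted p was 0.516.

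SLC7A5 (LAT1, which exchanges large neutral amino acids such as leucine) is often taken as the main light chain of SLC3A2 in dividing cells, and here it was low (ENSBTAG00000006731, chromosome 18, 13298147 to 13327247). SLC7A5 was at 3.45, 3.83, 3.13 and 3.75 RPKM in libraries A to D and 1.82, 1.40, 2.26 and 1.55 RPKM in E to H. Every day 35 library lay above every day 41 library. The log2 fold change was -0.73 (SE 0.12), and the adjusted p was 0.120 in limma-trend but 0.0175 in limma-voom with quality weights. The authors' deposited table has a log2 fold change of -1.01 and an FDR of 0.00603. SLC7A8 stood 25.2 to 35.1 times above SLC7A5 on day 35 and 37.7 to 57.9 times above it on day 41. Relative to SLC3A2, SLC7A5 stood at 1.35%, 2.14%, 2.16% and 2.54% in A to D and at 1.36%, 1.08%, 1.69% and 1.40% in E to H. The mean log2 ratio was lower by 0.55 on day 41, which did not pass a two-sided exact permutation test of 70 assignments (p = 0.114). Without library A the difference was -0.74 with an exact permutation p of 0.0286, the smallest that the remaining 7 libraries allow.

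SLC7A11 (xCT), which imports cystine for glutathione in exchange for glutamate, was near the limit of the filter (ENSBTAG00000034075, chromosome 17, 19415527 to 19485045). SLC7A11 stood at 0.695, 0.545, 0.565 and 1.08 RPKM in libraries A to D and 0.238, 0.219, 0.142 and 0.0988 RPKM in E to H. Behind these lay 119, 118, 114 and 176 reads in A to D and 53, 43, 25 and 23 reads in E to H. The days did not overlap, and the 4 libraries at or above 0.5 RPKM are the 4 of day 35, so the gene entered the test through the day in which it was high. Its log2 fold change was -0.54 (SE 0.12, adjusted p = 0.200) by limma-trend and -1.73 (adjusted p = 0.0334) by limma-voom with quality weights, and the authors' deposited table has -2.04 (FDR 0.0123).

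The remaining light chains, SLC7A7 and SLC7A6, exchange cationic amino acids such as arginine for neutral ones. SLC7A7 ran from 9.95 to 16.1 RPKM over the 8 libraries and SLC7A6 from 3.14 to 7.97 RPKM. SLC7A6 was low in library G, with 3.14 RPKM beside 7.38 to 7.97 RPKM in E, F and H. Both overlapped between the days, with limma-trend adjusted p-values of 0.610 and 0.903. Of the exon of SLC7A7, 265 bases are shared with OXA1L on the other strand.

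The sodium-dependent exchangers of neutral amino acids, SLC1A5 and SLC1A4, were lower in every day 41 library than in any of day 35. SLC1A5 (ASCT2), which takes up glutamine, had the largest log2 fold change by size of the 33 tested carriers in limma-trend (ENSBTAG00000013577, chromosome 18, 53864327 to 53893245). That rank did not hold in limma-voom with quality weights. There SLC7A11 (-1.73), SLC36A2 (1.67), SLC6A12 (1.56) and SLC6A6 (1.37) had larger values by size than SLC1A5 (-1.26). SLC1A5 reached 28.5, 18.3, 32.8 and 35.9 RPKM in libraries A to D and 11.04, 9.92, 14.1 and 13.1 RPKM in E to H. The highest day 41 library lay below the lowest of day 35, library B. The log2 fold change was -1.16 (SE 0.21), and the adjusted p was 0.147 in limma-trend but 0.0287 in limma-voom with quality weights. The authors' deposited table has -1.31 with an FDR of 1.36e-08.

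SLC1A4 (ASCT1), which exchanges alanine, serine and cysteine, was lower in level but differed between the days in the same direction (ENSBTAG00000007763, chromosome 11, 63379682 to 63409616). SLC1A4 was at 9.62, 7.08, 5.80 and 7.30 RPKM in libraries A to D and 3.55, 5.41, 2.13 and 3.06 RPKM in E to H. Again no day 41 library reached the lowest value of day 35. The log2 fold change was -0.93 (SE 0.22, limma-trend adjusted p = 0.218) and -0.81 without library A. The authors' deposited table has -1.17 (FDR 0.00156). SLC1A5 exceeded SLC1A4 in every library, by 1.83 to 6.61 times, with no separation of the days in that ratio.

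The acidic amino acid carrier SLC1A1 (EAAT3), which takes up glutamate and aspartate, varied more among outgrowths (ENSBTAG00000019125, chromosome 8, 39928081 to 40003010). SLC1A1 stood at 8.37, 7.34, 18.6 and 10.4 RPKM in libraries A to D and 6.12, 8.10, 3.86 and 3.54 RPKM in E to H. Library C was highest, and the days overlapped, since F lay above B. Its log2 fold change was -0.90 (SE 0.31, adjusted p = 0.331) by limma-trend and -0.65 without library C, and the authors' deposited table has an FDR of 0.0588. The glial glutamate carrier SLC1A3 was close to absent, with 5, 92, 25 and 21 reads in A to D and 28, 8, 2 and 74 reads in E to H. Summed over its 4 members, the SLC1 family stood at 46.5, 32.8, 57.3 and 53.7 RPKM in libraries A to D and 20.8, 23.4, 20.1 and 19.8 RPKM in E to H. The sums of the days did not overlap, and the lowest of day 35 came from library B.

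**Figure D3:**
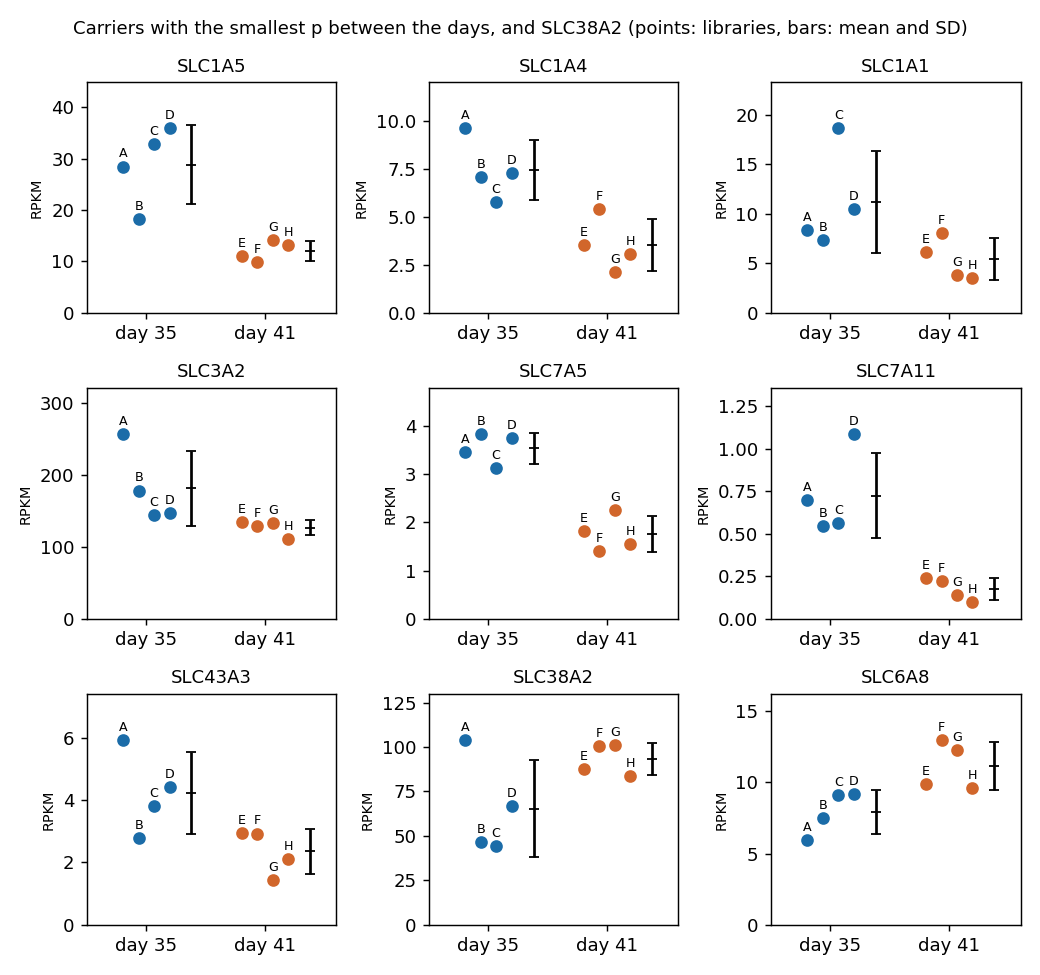
RPKM in each library (lettered points) with the mean and SD of 4 libraries per day for the 8 carriers with the smallest limma-trend p and for SLC38A2 (linear axes from 0). The days are separate for SLC1A5, SLC1A4, SLC3A2, SLC7A5, SLC7A11 and SLC6A8, and overlap for SLC1A1, SLC43A3 and SLC38A2.

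The sodium-coupled carrier SLC38A2 (SNAT2), which accumulates small neutral amino acids by system A, was the third carrier in level (ENSBTAG00000011105, chromosome 5, 33850777 to 33865222). SLC38A2 reached 104, 46.5, 44.4 and 66.7 RPKM in libraries A to D and 87.6, 100.5, 101 and 83.8 RPKM in E to H. Library A had the highest value of all 8, at the level of day 41, while B, C and D lay below every day 41 library. The log2 fold change was 0.59 (SE 0.25, limma-trend adjusted p = 0.410) and 0.83 without library A. By limma-voom with quality weights it was 0.86 (adjusted p = 0.0298), with a weight of 0.133 for library A, the lowest of the 8, and the authors' deposited table has 0.70 (FDR 0.0392).

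Its neighbour SLC38A1 (SNAT1), which also carries glutamine, lay 75.3 kb away on chromosome 5 and was at 10.1 ± 3.20 and 9.09 ± 1.79 RPKM on days 35 and 41, with overlapping days (adjusted p = 0.886 by limma-trend). SLC38A2 exceeded it by 3.71 to 14.95 times across libraries. The annotated exon of SLC38A1 is 1557 bases long and that of SLC38A2 4781 bases, and RPKM rests on those lengths. SLC38A3, a glutamine and histidine carrier typical of liver and brain, was near the filter at 0.582 ± 0.0850 and 0.444 ± 0.162 RPKM.

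The SLC38 members of the lysosome, SLC38A9 and SLC38A7, were among the 12 most abundant carriers. SLC38A9, which senses arginine at the lysosome for mTORC1, was at 22.7 ± 4.09 and 29.3 ± 3.502 RPKM on days 35 and 41, and SLC38A7, which lets glutamine out of the lysosome, at 21.6 ± 4.74 and 16.8 ± 2.93 RPKM. In neither did the days separate, and their limma-trend adjusted p-values were 0.390 and 0.525. The roles of SLC38A10 and SLC38A6 are less defined. SLC38A10 varied least of the family, at 23.3 ± 1.93 and 26.2 ± 0.844 RPKM. Its days did not overlap although the ratio of the means was only 1.12 (limma-trend adjusted p = 0.491). SLC38A6 was at 12.4 ± 4.29 and 8.06 ± 0.971 RPKM, with library A highest at 18.7 RPKM and no overlap of the days (adjusted p = 0.368).

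SLC7A4 is a member of the cationic carrier subfamily whose substrate is not settled (ENSBTAG00000009145, chromosome 17, 72369764 to 72376047). It was far more abundant than SLC7A1 and SLC7A2, the 2 carriers of that subfamily with known transport that had a row under their symbol. SLC7A4 was at 36.8, 71.4, 51.8 and 53.0 RPKM in libraries A to D and 52.2, 59.7, 29.6 and 31.2 RPKM in E to H. Library B was highest and G lowest, and the days overlapped (limma-trend adjusted p = 0.692). SLC7A1, the general arginine and lysine carrier, was at 5.51 ± 2.08 and 4.42 ± 0.666 RPKM on days 35 and 41, with an adjusted p of 0.773. SLC7A2, its inducible relative, was nearly absent, with 10, 10, 19 and 18 reads in A to D and 8, 21, 0 and 71 reads in E to H.

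The facilitated carriers of large neutral amino acids came next. SLC43A1 (LAT3) ran from 20.1 to 31.6 RPKM. SLC43A2 (LAT4), through which cells release essential amino acids, had only 1.95 RPKM in library A, beside 7.02 to 14.5 RPKM in the other 7, so the ratio of SLC43A1 to SLC43A2 was 16.2 in A and 1.52 to 4.38 elsewhere. The limma-trend adjusted p was 0.765 for SLC43A1 and 0.792 for SLC43A2. SLC43A3, the third of the family, carries purine bases and not amino acids. SLC43A3 stood at 5.92, 2.79, 3.81 and 4.42 RPKM in libraries A to D and 2.93, 2.93, 1.44 and 2.10 RPKM in E to H. The days overlapped, with library A highest and G lowest. Its log2 fold change by limma-trend was -0.64 (SE 0.22, adjusted p = 0.331) and -0.49 without library A.

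Peptide carriers were led by SLC15A4, which moves histidine and peptides out of the lysosome and was among the steadiest of all carriers, from 21.4 to 25.0 RPKM. SLC15A1 (PEPT1), the proton-coupled carrier of di- and tripeptides known from the gut, was also present (ENSBTAG00000004440, chromosome 12, 75634639 to 75662955). SLC15A1 reached 15.3, 11.2, 21.8 and 15.04 RPKM in libraries A to D and 10.9, 10.7, 8.21 and 26.6 RPKM in E to H. Library H stood above the other day 41 libraries, and the days overlapped (limma-trend adjusted p = 0.815). SLC15A3, a peptide and histidine carrier of endosomes, ran from 0.0426 to 0.388 RPKM, and 142 bases of its exon are shared with TMEM132A on the other strand.

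The proton-coupled SLC36 carriers differed in how widely they varied. SLC36A1, found at the lysosome and the cell surface, ran from 2.37 to 4.18 RPKM and SLC36A4 from 3.83 to 7.04 RPKM, while SLC36A2, a carrier of glycine, proline and alanine, spread 20.1-fold. SLC36A2 was at 12.2, 0.815, 2.09 and 4.28 RPKM in libraries A to D and 3.73, 16.4, 5.98 and 9.30 RPKM in E to H. Libraries F, A and H were high and B was low, and the high libraries included both days (limma-trend adjusted p = 0.577). SLC36A2 and SLC36A1 lie 51.0 kb apart on chromosome 7, and SLC36A2 stood at 0.248 to 5.16 times the level of SLC36A1.

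Of the 10 SLC6 genes, the 5 that carry other small molecules had a higher summed level than the 5 that carry amino acids, in every library. Their summed level was 17.7, 12.7, 14.5 and 20.8 RPKM in libraries A to D and 24.5, 36.8, 21.6 and 22.5 RPKM in E to H, and that of the 5 amino acid carriers was 8.23, 6.42, 5.26 and 5.51 RPKM in libraries A to D and 3.36, 5.41, 3.31 and 3.48 RPKM in E to H. SLC6A8, the creatine carrier, and SLC6A6, the taurine carrier, were the most abundant. SLC6A8 stood at 5.96, 7.501, 9.13 and 9.16 RPKM in libraries A to D and 9.89, 13.0, 12.3 and 9.59 RPKM in E to H. All 4 values of day 41 lay above those of day 35, by a small margin between D and H. The log2 fold change was 0.45 (SE 0.15, limma-trend adjusted p = 0.331) and 0.34 without library A, the lowest of day 35.

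Taurine and betaine serve cells as osmolytes, and the carriers of both varied widely among outgrowths. SLC6A6 reached 9.40, 3.14, 3.495 and 8.91 RPKM in libraries A to D and 11.7, 17.96, 7.38 and 6.28 RPKM in E to H. SLC6A12 was at 1.41, 0.391, 0.297 and 0.932 RPKM in libraries A to D and 0.601, 4.66, 0.713 and 4.30 RPKM in E to H. Both were highest in library F, and SLC6A12, the betaine carrier, was next highest in H, above all of day 35. The days overlapped in both, with limma-trend adjusted p-values of 0.520 and 0.524. SLC6A11, a GABA carrier, and SLC6A4, the serotonin carrier, lay between 0.281 and 1.42 RPKM. Among the amino acid carriers of the family, the glycine carrier SLC6A9 stood highest, at 4.86 ± 1.55 and 3.13 ± 0.985 RPKM, with overlapping days (adjusted p = 0.411).

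**Figure D4:**
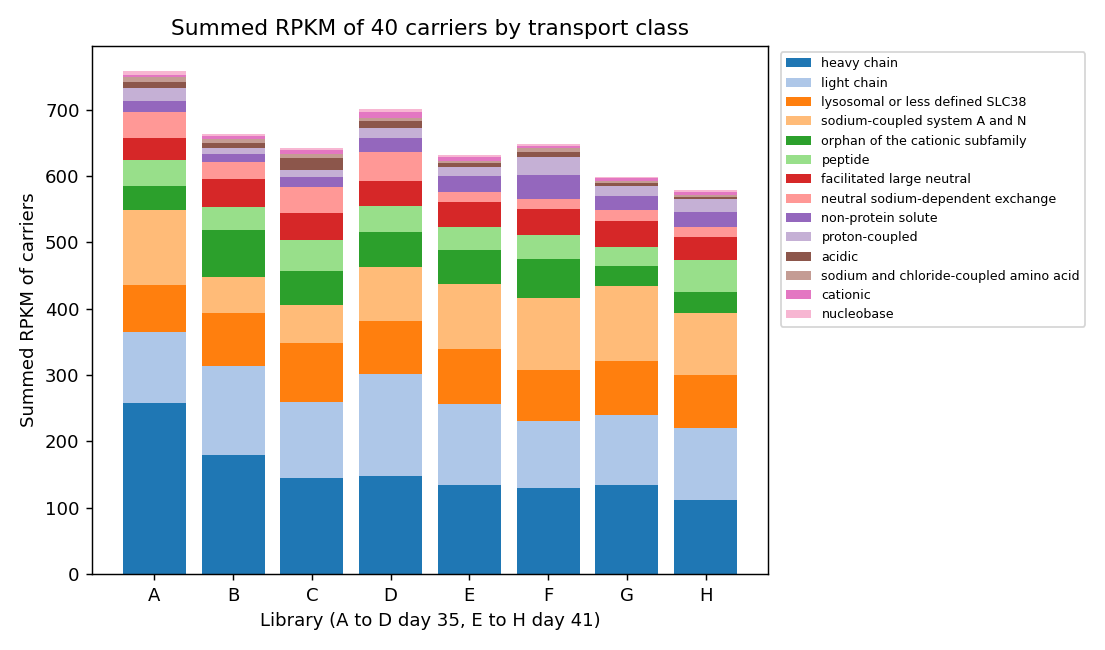
Summed RPKM of the 40 carriers in each library, stacked by transport class, with libraries A to D of day 35 on the left and E to H of day 41 on the right. Heavy chains, light chains and the SLC38 classes make up most of each bar, and the neutral sodium-dependent exchangers SLC1A4 and SLC1A5 take a thinner band on day 41.

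Another 7 carriers did not reach the filter and were not tested, namely SLC6A20, SLC6A14, SLC15A3, SLC6A19, SLC6A17, SLC7A2 and SLC1A3. SLC6A20, a proline carrier, reached 0.5 RPKM in 3 libraries and was highest in B, at 1.29 RPKM, against 0.215 to 0.940 RPKM in the other 7. Of the exon of SLC6A20, 56 of 2784 bases are shared with LZTFL1 on the same strand. SLC6A14, which takes up both neutral and cationic amino acids and is induced in some epithelia, was low but even, from 0.232 to 0.471 RPKM. SLC6A19, the main neutral carrier of gut and kidney, was at 0.713 RPKM in library B and at 0.00244 to 0.115 RPKM elsewhere. Library B is also the one with the highest summed hypoblast and mesenchymal markers. The part of those cells in SLC6A19 and SLC6A20 was not tested, and library E, second in hypoblast markers at 254 RPKM, had 0.0503 RPKM of SLC6A19 and 0.215 RPKM of SLC6A20. SLC6A17, a carrier of synaptic vesicles, had 0.319 RPKM in library A and no more than 0.109 RPKM elsewhere.

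Some carriers varied widely between outgrowths of 1 day and others hardly at all. The median coefficient of variation (CV, the SD as a percentage of the mean) over the 33 tested carriers was 27.6% on day 35 and 20.98% on day 41, against 19% and 11.8% over all tested genes, and 25 and 27 of the 33 lay above those medians. Without library A, a calculation added after the data were seen, the day 35 medians were 18.7% and 10.01%, and 28 of the 33 carriers lay above the latter. SLC36A2, SLC6A12, SLC6A6 and SLC1A1 were at or above the 89.7 percentile of all tested genes on both days, and without library A their day 35 CVs were 73.2%, 63.5%, 62.4% and 47.98%. At the other end, SLC15A4 had a CV of 2.77% and 4.88% on the days and SLC38A10 of 8.28% and 3.22%, the latter gene with 4.59% on day 35 without library A. SLC38A2, the third in level, had a CV of 42.1% on day 35, 23.5% there without library A, and 9.50% on day 41.

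**Figure D5:**
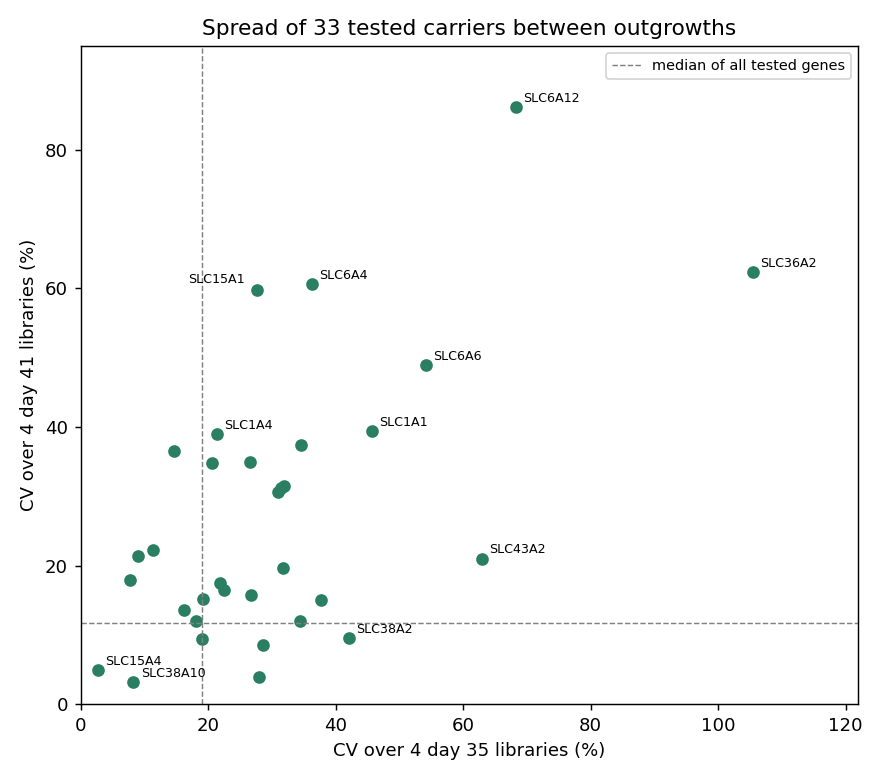
CV of RPKM over the 4 libraries of day 35 against that over the 4 of day 41 for the 33 tested carriers, in percent, with dashed lines at the medians of all tested genes, 19% and 11.8%. SLC36A2 and SLC6A12 lie at the upper right, and SLC15A4 and SLC38A10 at the lower left.

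Genes that handle or sense amino acids gave the setting of these values, in lists chosen with earlier results of these data known. A list of 15 further genes of amino acid transport included CLTRN, which is not itself a carrier, and the SLC38 name SLC38A12, which had no row. Of the 15, 12 had a row and 10 were tested, with 5 higher and 5 lower by limma-trend. Limma-trend, limma-voom with quality weights and the authors' deposited table called 0 of them, and 0 had an unadjusted limma-trend p under 0.05. The most abundant was SLC66A1, which exports cationic amino acids from the lysosome, at 88.3 to 129 RPKM.

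Of 32 genes of amino acid sensing and its control, 30 were tested and limma-trend called 0, with 2 higher and 4 lower at an unadjusted p under 0.05, where 5.90% and 5.82% of all tested genes had one. EIF2AK4 (GCN2), the kinase that responds to uncharged tRNA, was at 8.31, 12.6, 13.1 and 13.7 RPKM in A to D and at 18.1, 19.6, 15.6 and 22.3 RPKM in E to H. ATF4, which acts downstream of it, was at 574, 401, 352 and 340 RPKM in A to D and at 279, 243, 280 and 190 RPKM in E to H. The days did not overlap in either and they differed in opposite directions. The limma-trend adjusted p was 0.231 for EIF2AK4 and 0.236 for ATF4, and the authors' deposited table has an FDR of 0.0234 and 0.0224. Limma-voom with quality weights called EIF2AK4 and RRAGA higher and 0 lower, where it called 2.96% and 2.23% of all tested genes.

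Of 26 enzymes that make or use amino acids, 23 were tested. This list too was chosen with earlier results known, so its counts are description and not a test. By limma-trend 19 had lower and 4 higher values, 0 were called, and 8 lower and 0 higher had an unadjusted p under 0.05, against 5.82% and 5.90% of all tested genes. Limma-voom with quality weights called 6 lower, ASNS, PSAT1, PSPH, SHMT1, PYCR1 and CBS, and 0 higher, against 2.23% and 2.96% of all tested genes. The authors' deposited table has 5 with an FDR under 0.05, all lower, namely ASNS, PHGDH, PSPH, PYCR1 and ODC1, against 1.08% of all genes. PYCR1, which makes proline, was at 37.5, 37.6, 31.9 and 32.97 RPKM in A to D and at 21.9, 17.8, 26.1 and 16.9 RPKM in E to H. The glutamine-making enzyme GLUL was at 46.9 to 92.6 RPKM in A to D and 80.4 to 96.7 RPKM in E to H, with the lowest value in library A.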

How the data were processed

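Total RNA of 8 outgrowths was sequenced and 1 table covers all of them. The authors used FastQC, HISAT2, featureCounts and edgeR, per the submitters' processing notes, with the ARS-UCD1.2 build, and coordinates here are of that build; their settings, strand included, are not given in the sources used here. The authors deposited RPKM per gene and library, exon length in bases, and their own day comparison as a log2 fold change, a likelihood ratio score, p-values and FDR. Multiplying RPKM by exon length and dividing by the smallest step gave whole reads within 0.01.

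Day 41 was compared with day 35 in limma 3.58.1 (R 4.3.3) on log2(RPKM + 1), for genes at 0.5 RPKM or more in at least 4 libraries, with Benjamini-Hochberg adjustment at 0.05. Sums, ratios and CVs were computed in Python 3.11.15 with pandas 2.3.3 and numpy 2.4.6. Scripts were tested on simulated data. Alternatives were other pseudocounts, filters, scalings and weights, limma-voom on the reads, and each library left out. The genes picked for description are the 12 highest, the 8 with the smallest p, those under the authors' FDR of 0.05 and a list of placental carriers. They are given by library, as a range, or as mean and SD, and others are named to account for every member. The members and lists were chosen with earlier results of these data known. The marker lists were of trophectoderm, hypoblast, mesenchyme, immune, cumulus and endothelial cells.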

Additional observations from a re-analysis of the deposited data

Results flagged for a closer look

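In each group of 4 libraries, the gap between an extreme library and its nearest neighbour was divided by the range of the group, and 4 of 80 groups screened passed Dixon's 95% critical value, where chance gives about 1 in 20. SLC15A1, the peptide carrier, had a ratio of 0.853 on day 41 from library H, at 26.6 RPKM against 8.21 to 10.9 RPKM. SLC7A6, a light chain, had 0.877 on day 41 from library G, at 3.14 RPKM against 7.38 to 7.97 RPKM. SLC6A19, the neutral carrier of gut and kidney, had 0.869 on day 35 from library B, at 0.713 RPKM against 0.0252 to 0.115 RPKM. SLC6A17, a vesicle carrier, had 0.901 on day 35 from library A, at 0.319 RPKM against 0.0401 to 0.0677 RPKM.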

How the results depend on the processing

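Limma-trend called 0 carriers at pseudocounts of 0.1 and 0.5, with no filter, with a filter of 1 RPKM, after median-of-ratios scaling and with any library left out, and limma-voom without weights also called 0. Array weights called 2 higher and 5 lower, and limma-voom with quality weights 1 and 4. Over all genes, 4 were called higher and 2 lower. The count higher was 592 with array weights, 372 with limma-voom and quality weights and 2 with limma-voom, and the count lower was 452, 280 and 0; a pseudocount of 0.1 and no filter each gave 0 lower. Leaving out a library gave 0 to 25 higher and 0 to 18 lower, with the upper end of both without library A. The cause of these differences was not tested. Of the log2 fold changes of 9 carriers under these alternatives, 133 kept their direction and their side of the threshold, 10 passed the threshold and 0 reversed. That of SLC1A5 ran from -1.36 to -1.05, of SLC7A5 from -1.04 to -0.66, of SLC7A11 from -2.05 to -0.44 and of SLC38A2 from 0.43 to 0.86. The log2 ratio of SLC7A5 to SLC3A2 differed between the days by -0.74 to -0.43 with a library left out, and passed the exact test only without A. No paired analysis was possible because the days share 1 outgrowth number and the columns carry none. The motif alternative was not run. Carriers with few reads, such as SLC7A2 and SLC1A3, were too low to compare.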
